A study of Mus musculus with 8 samples.

Results

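The nuclear receptors described here are 46 genes of the mouse nuclear receptor superfamily, chosen by gene symbol from a fixed list, out of 55487 genes in the count table. The list was matched to gene identifiers through the GENCODE M21 annotation, and all 46 symbols were found. RNA was measured in 8 tumors of LLC (Lewis lung carcinoma), a cell line from a mouse lung cancer that was engrafted subcutaneously in C57BL/6J hosts, and the tumors were collected at day 12. The 2 groups were 4 tumors grown from wild-type LLC cells and 4 grown from LLC cells labelled Ago2 knock-out (ΔAgo2). Hosts were wild-type females aged 6 to 8 weeks per the study's methods. The ΔAgo2 line was made with a lentiviral CRISPR guide and single-cell cloning, so the 4 ΔAgo2 tumors share 1 clone and differences between clones cannot be told apart from the knock-out. Whole tumors were lysed, so host fibroblasts, vessels and immune cells, which keep Ago2, are part of every sample.

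Nuclear receptors are transcription factors that bind short DNA elements built on the hexamer AGGTCA, or a close variant, and many are switched by a small lipophilic ligand such as a steroid, retinoic acid, thyroid hormone, an oxysterol or a fatty acid. Steroid receptors mostly act as homodimers, whereas the receptors for retinoic acid, thyroid hormone, vitamin D, oxysterols and fatty acids pair with a retinoid X receptor. Without ligand many of them recruit corepressors such as Ncor1, and with ligand they exchange these for coactivators of the Ncoa family. The REV-ERB and COUP-TF receptors act largely as repressors, and the REV-ERBs form an arm of the circadian clock. Argonaute 2 (Ago2) loads small RNAs and silences matching transcripts.

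The promoters of Nr2f1, Nr1d2 and Nr1d1 are shown first because the first 2 genes are the ones that passed the test between genotypes, and the last is the paralog and clock partner of Nr1d2. Each run covers 250 bases before to 50 bases after the transcription start of RefSeq on GRCm38.p6, read 5′ to 3′ on the minus strand, from chr13:78198824-78199123, chr14:18239057-18239356 and chr11:98775328-98775627. The capitals mark the hexamer AGGTCA.
Nr2f1: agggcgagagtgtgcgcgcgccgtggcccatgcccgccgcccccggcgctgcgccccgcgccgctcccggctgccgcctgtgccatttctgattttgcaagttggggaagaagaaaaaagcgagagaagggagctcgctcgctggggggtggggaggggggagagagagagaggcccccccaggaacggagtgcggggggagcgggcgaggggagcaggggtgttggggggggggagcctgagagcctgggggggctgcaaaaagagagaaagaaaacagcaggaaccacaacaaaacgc
Nr1d2: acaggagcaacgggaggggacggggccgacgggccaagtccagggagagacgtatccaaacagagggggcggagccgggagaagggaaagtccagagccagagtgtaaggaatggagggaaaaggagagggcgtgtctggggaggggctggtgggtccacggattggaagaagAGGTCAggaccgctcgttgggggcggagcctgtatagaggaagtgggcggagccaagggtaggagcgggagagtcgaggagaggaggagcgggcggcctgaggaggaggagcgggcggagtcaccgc
Nr1d1: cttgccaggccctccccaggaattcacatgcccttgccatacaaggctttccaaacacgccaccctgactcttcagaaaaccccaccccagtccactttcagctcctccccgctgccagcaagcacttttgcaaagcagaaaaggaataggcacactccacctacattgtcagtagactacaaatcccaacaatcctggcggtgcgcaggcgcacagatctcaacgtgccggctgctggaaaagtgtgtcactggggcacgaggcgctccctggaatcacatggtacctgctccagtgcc
Their GC contents were 68%, 65.7% and 56.3%. The Nr1d2 window held AGGTCA once, starting 77 bases before the start, and the other windows held it on neither strand. The GENCODE gene of Nr2f1 reaches further upstream, to position 78199757, so its window lies inside the annotated gene. A RefSeq promoter was found for 42 of the 46 genes, 63 windows in all. AGGTCA on either strand was in 12 of these 63 windows (19%), from 11 genes, against 16.3% of all 32851 windows of the same length. The E-box CACGTG, the element bound by CLOCK and BMAL1, was in 6 of 63 windows (9.52%) against 7.15% of all windows, and in none of the 3 printed. The spaced repeat AGGTCANNAGGTCA, which contains the hexamer, was in no window of these genes and in 3 of all windows (0.00913%). These are matches of letters in a short window and say nothing of binding.

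Depth differed widely. Total gene counts ran from 7903288 in wild-type tumor 4 to 268564145 in ΔAgo2 tumor 4, so a count of 0 allowed up to 0.43 CPM (counts per 1e+06, on TMM-scaled totals) in the shallowest library and 0.0105 CPM in the deepest, for counting error only. The targeted gene, Ago2 (chr15:73095844-73184935, minus strand, GRCm38), had 130, 195, 151.3 and 139 CPM in wild-type tumors 1 to 4 and 118, 355, 215 and 270 CPM in ΔAgo2 tumors 1 to 4. Its log2 fold change was 0.64 ± 0.30 (SE) with an adjusted p of 0.205, so whole-tumor Ago2 RNA, which includes that of host cells, does not check the labels. Of 9 lung epithelium markers in these tumors labelled lung carcinoma, Nkx2-1 and Sftpa1 had 0 counts in every library, Sftpc, Sftpb and Scgb1a1 had 3, 1 and 4 counts in all, and Epcam, Cdh1, Krt8 and Krt18 were detected in every tumor, at 0.736 to 4.36, 2.44 to 13.99, 231 to 501 and 257 to 845 CPM. Summed skeletal muscle markers, 12 of 12 detected, reached 4284 CPM in tumor 3 of the wild-type group, and the other 7 tumors had 58.5 to 582 CPM. Summed adipocyte markers, 10 of 10 detected, were high in wild-type tumor 3 (218 CPM) and ΔAgo2 tumor 1 (394 CPM) and at 18.8 to 55.2 CPM elsewhere. Summed keratinocyte markers were at 13.5 CPM in wild-type tumor 3 and 172 to 956 CPM in the others. Libraries also differed in the way coverage followed GC content: the log2 level of genes at 60% GC over genes at 45% GC was 0.97 and 1.34 in wild-type tumors 2 and 4, −0.13 and −0.26 in wild-type tumors 1 and 3, and −0.06, −0.83, −0.43 and −0.65 in ΔAgo2 tumors 1 to 4.

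Of the 46 genes, 28 passed the filter on low counts and were tested, 13 had counts but stayed under the filter, and 5 had no count in any library. In TPM (transcripts per 1e+06), which allow levels of different genes to be compared per length, 22 of the 28 had a mean above 1 TPM and 17 above 10 TPM. The highest means were Nr1h2 (125.8 TPM), Rarg (123.1 TPM), Nr2f6 (121.7 TPM) and Rxrb (107.1 TPM), followed by Thra at 62.5 TPM. The first 4 overlapped across tumors: Nr1h2 ran from 67.6 to 243 TPM and Rxrb from 65.5 to 197 TPM. The most abundant receptor transcripts were thus those of an oxysterol receptor, a retinoic acid receptor, a COUP-TF and a retinoid X receptor, at overlapping levels. These 4 genes have 58.75 to 67.27% GC, and their highest TPM were in wild-type tumors 2 and 4, the libraries with GC-rich coverage. In ΔAgo2 tumors alone they also led, with means of 75.06 to 99.34 TPM, but Thra (53.72 TPM) lay under Nr1d1 (60.03 TPM) and Ppard (59.14 TPM). At the other end Thrb, Nr1h4 and Nr5a2 averaged 0.228, 0.181 and 0.154 TPM.

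**Figure D1:**
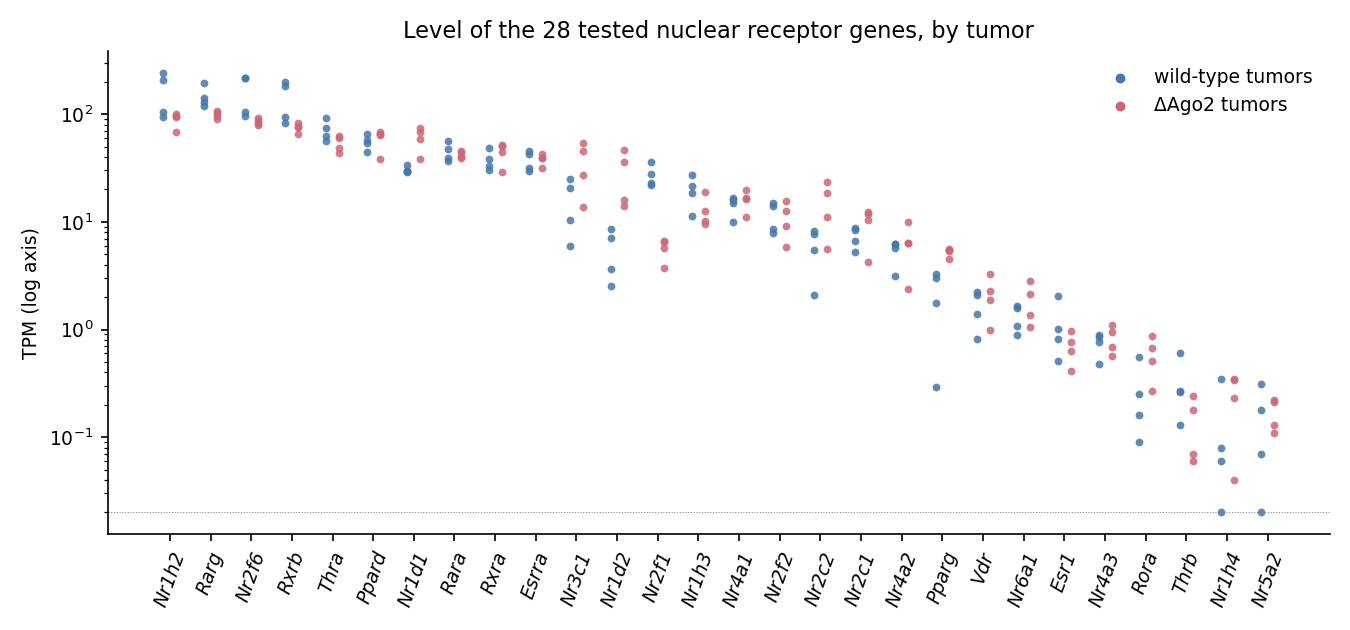
TPM of the 28 tested nuclear receptor genes on a log axis, a point per tumor, wild-type in blue and ΔAgo2 in red, ordered by mean TPM; values listed at 0 are drawn on the dotted line. The first 4 genes lie near 100 TPM, and Nr2f1 and Nr1d2 are 2 of the genes in which the colors separate.

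Between genotypes, 2 of the 28 tested genes passed the test, Nr1d2, which rose, and Nr2f1, which fell. Genotypes were compared by the quasi-likelihood test of edgeR, p-values were adjusted by Benjamini-Hochberg over 16061 genes with a threshold of 0.05, and every adjusted p given here comes from this test unless another is named. That is 7.14% of 28 genes, against 3.49% of all genes tested (560 genes), with 1.36% of all genes higher and 2.12% lower in ΔAgo2 tumors. The other 26 genes had adjusted p-values from 0.0754 to 0.967. The 4 wild-type and 4 ΔAgo2 values did not overlap in 7 of the 28 genes, against 16.4% of all genes, with Nr1d1, Nr1d2 and Pparg higher and Nr2f1, Thra, Rarg and Nr1h2 lower in ΔAgo2 tumors. Of the 28, 10 had a log2 fold change above 0 and 18 below 0, with a median of −0.10, against 0.04 over all genes. Before adjustment 13 of 28 had p under 0.05, and 4279 of all genes did. With DESeq2's Wald test 9 of 28 passed, 4 higher and 5 lower, against 14.2% of all genes: the 2 above with Nr1d1, Pparg and Nr2c2 higher and Nr1h2, Nr2f6, Rarg and Rxrb lower. Without wild-type tumor 3 or ΔAgo2 tumor 1, the libraries with the high muscle or adipocyte sums, 6 of 28 passed, in fits that called 5.68% and 11% of all genes, and without wild-type tumor 2, ΔAgo2 tumor 2 or ΔAgo2 tumor 4 only Nr2f1 did, in fits that called 0.87%, 1.02% and 0.541%. In whole tumors fewer cells of a type and less RNA per cell cannot be told apart, for these and all results that follow.

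**Figure D2:**
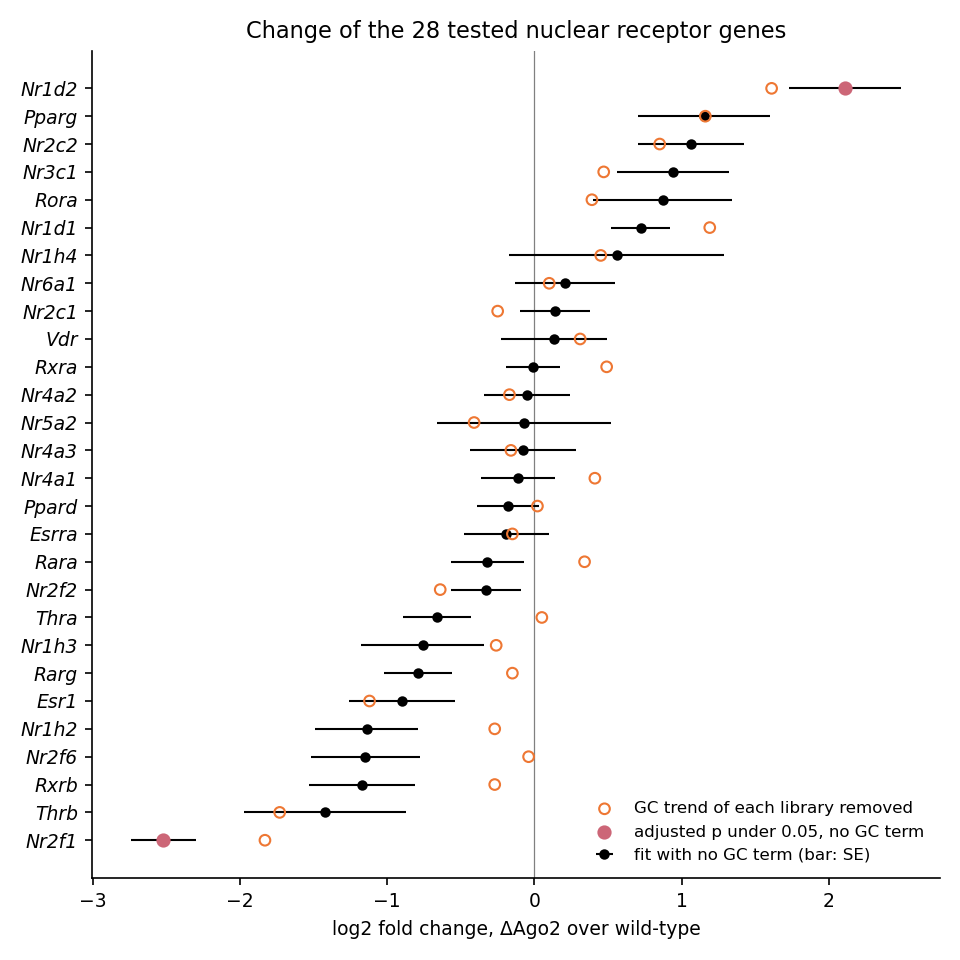
Log2 fold change of the 28 tested nuclear receptor genes in ΔAgo2 over wild-type tumors, with the SE as bars; open circles are the same change after each library's trend on GC content was removed. Nr2f1 at −2.52 and Nr1d2 at 2.11 lie at the ends with and without the GC trend, and the circles of Nr1h2, Nr2f6, Rarg and Rxrb move toward 0.

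The fold changes of the 28 genes followed their GC content. Spearman's rho between GC content of the longest transcript and log2 fold change was −0.583 over the 28 genes and −0.561 over 16059 genes tested, a description across genes that share the same 8 libraries. Of the 11 receptor genes above 55% GC, 10 had a log2 fold change below 0, with a median of −0.76, and all genes in that range had a median of −0.49. With the GC trend of each library removed, the median of these 11 genes was −0.04. The 9 receptor genes under 47% GC had a median of 0.14, and −0.25 with the trend removed, against 0.46 for all genes there. In 12 of the 28 genes wild-type tumors 2 and 4, the 2 libraries with GC-rich coverage, were the 2 highest of the wild-type tumors. The same count was not made over all genes, so it is not known whether this is particular to the receptors. Removing the trend moved a log2 fold change by up to 1.11, so values with the trend removed are given below for every tested receptor and for each named partner gene whose call or direction it changes. With the trend removed 3 of 28 passed, Nr1d2, Nr1d1 and Nr2f1, against 3.59% of all genes. The part of GC coverage in the other differences was not tested beyond this.

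**Figure D3:**
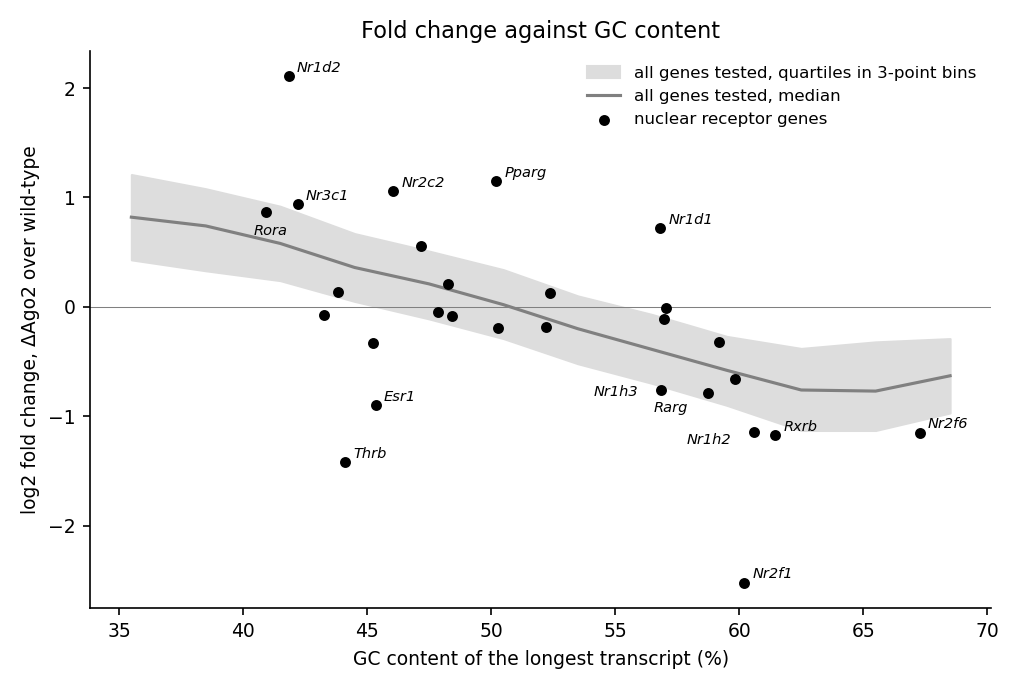
Log2 fold change in ΔAgo2 over wild-type tumors against GC content of the longest transcript for the 28 nuclear receptor genes (points), with the median (line) and quartiles (band) of all genes tested in bins of 3 percentage points. Nr2f6, Rxrb, Nr1h2 and Rarg lie near the band of all genes at their GC content, and Nr2f1, Nr1d2, Nr1d1 and Thrb are among those outside it.

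Among the COUP-TFs, Nr2f1 (COUP-TFI), an orphan repressor known from neural crest, nervous system and mesenchymal development, fell. It lies at chr13:78188973-78199757 on the minus strand. Its level was 39.5, 64.8, 49.6 and 58.5 CPM in wild-type tumors 1 to 4 and 8.70, 9.30, 10.5 and 8.50 CPM in ΔAgo2 tumors 1 to 4. Each wild-type tumor was above each ΔAgo2 tumor by more than the whole spread of the ΔAgo2 group. Wild-type tumors averaged 53.1 ± 11.01 CPM and ΔAgo2 tumors 9.26 ± 0.916 CPM (SD, n = 4 each), a 5.73-fold difference, with a log2 fold change of −2.52 ± 0.22 (SE) and an edgeR adjusted p of 0.00109. Removing the GC trend gave −1.83 with an adjusted p of 0.00194. It stayed past the threshold in 16 of 16 alternative fits, with adjusted p from 3.57e-25 to 0.0261. The annotated antisense transcript A830082K12Rik, which shares the locus, had 2.87 to 7.93 CPM in wild-type and 1.83 to 4.00 CPM in ΔAgo2 tumors, with a log2 fold change of −1.10 ± 0.37 (SE) and an adjusted p of 0.106. The libraries are stranded but the strand setting of the counting is not given in the sources used here, so reads of the pair may be shared.

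The 2 other COUP-TFs did not pass. Nr2f2 (COUP-TFII), a factor of venous and stromal identity, ran from 25.7 to 45.8 CPM in wild-type and 22.9 to 37.0 CPM in ΔAgo2 tumors, with a log2 fold change of −0.33 ± 0.24 (SE) and an adjusted p of 0.400, and −0.64 with the GC trend removed. Nr2f6 (EAR2), a repressor studied in T cells, had 111, 226, 99.0 and 321 CPM in wild-type and 117, 64.6, 78.8 and 80.0 CPM in ΔAgo2 tumors. The high values were those of wild-type tumors 2 and 4, the groups overlapped, and the log2 fold change of −1.15 ± 0.37 (SE, adjusted p = 0.0979) became −0.04 with the GC trend removed. Summed fibroblast and pericyte markers, 11 of 11 detected, ran from 4951 to 7306 CPM in wild-type and from 2344 to 4696 CPM in ΔAgo2 tumors and did not overlap. Most of that sum was Col3a1, at 3762 to 5751 and 1407 to 3701 CPM, and over the 11 markers 7 had a log2 fold change below 0 and 4 above 0, Dcn, Pdgfra, Rgs5 and Postn, with 1 called (Fap, lower). Summed endothelial markers overlapped, at 376 to 560 CPM and 339 to 418 CPM. The part of stromal cells in the level of Nr2f1 was not tested.

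**Figure D4:**
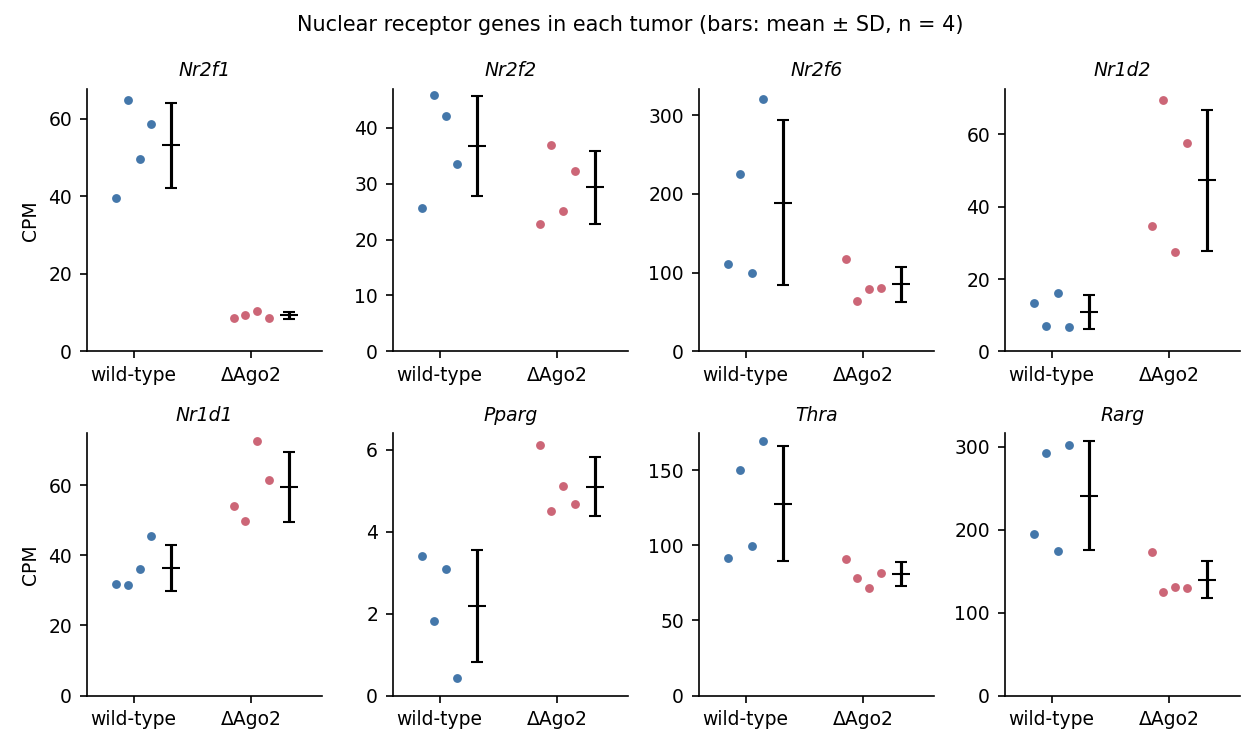
CPM of 8 nuclear receptor genes in each tumor, with mean ± SD of 4 tumors beside the points and a separate axis from 0 for each gene. Nr2f1 separates with a narrow ΔAgo2 group, Nr1d2 and Nr1d1 are higher in ΔAgo2 tumors, and in Nr2f6, Thra and Rarg wild-type tumors 2 and 4 are the highest.

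The REV-ERBs were both higher on average in ΔAgo2 tumors, and 1 of the 2 passed. Nr1d2 (REV-ERBβ) and Nr1d1 (REV-ERBα) are heme-binding repressors that close a loop of the circadian clock by lowering Arntl (BMAL1), and Rora and Rorb are the activators that compete for the same elements. Nr1d2, at chr14:18204054-18239127 on the minus strand, rose: it had 13.3, 6.91, 16.2 and 6.74 CPM in wild-type tumors 1 to 4 and 34.6, 69.4, 27.5 and 57.6 CPM in ΔAgo2 tumors 1 to 4. The groups did not overlap, and within the ΔAgo2 group tumors 2 and 4 were the highest. The averages were 10.8 ± 4.72 and 47.3 ± 19.6 CPM (SD, n = 4 each), a 4.33-fold difference, with a log2 fold change of 2.11 ± 0.38 (SE) and an edgeR adjusted p of 0.0177. Removing the GC trend gave 1.61 (adjusted p = 0.00449). Without wild-type tumor 2, ΔAgo2 tumor 2 or ΔAgo2 tumor 4 the adjusted p was 0.0689, 0.0518 and 0.0612 at log2 fold changes of 1.95, 1.86 and 2.02, and over all 16 alternatives it ran from 5.11e-06 to 0.116, with 12 of 16 past the threshold.

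Nr1d1, at chr11:98767932-98775333 on the minus strand, had 31.9, 31.6, 36.1 and 45.6 CPM in wild-type tumors and 54.0, 49.8, 72.7 and 61.5 CPM in ΔAgo2 tumors. The groups did not overlap, and the nearest values were 45.6 and 49.8 CPM. The log2 fold change was 0.72 ± 0.20 (SE) with an edgeR adjusted p of 0.0754, which missed the threshold. Removing the GC trend gave 1.19 (adjusted p, 0.0128), leaving out ΔAgo2 tumor 1 gave 0.76 (0.0460), and DESeq2 gave 0.70 (0.0234). Nr1d1 overlaps Thra on the opposite strand over 1075 bases (chr11:98767932-98769006), and reads in that stretch are uncertain for both genes. Rora ran from 0.573 to 2.52 CPM and from 1.58 to 3.34 CPM, with a log2 fold change of 0.87 ± 0.47 (SE, adjusted p = 0.255), and 0.39 with the GC trend removed. Rorb stayed under the filter, with 18 counts in all libraries together.

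Among 16 clock partners and targets, 15 were tested, 1 rose and 1 fell, and their median log2 fold change was 0.12. DESeq2 called 6, and the fit with the GC trend removed called 2, the output genes Dbp and Tef. For this list and those that follow, the DESeq2 fit called 14.2% of all genes and the fit with the GC trend removed 3.59%. Before adjustment 4279 of all 16061 genes tested with edgeR had p under 0.05. Clock, which encodes the partner of BMAL1, rose from 8.74 ± 3.03 to 29.2 ± 15.4 CPM (SD, n = 4 each), with a log2 fold change of 1.72 ± 0.41 (SE) and an adjusted p of 0.0475. Cry1, a repressor of CLOCK and BMAL1, fell from 15.4 ± 1.94 to 8.30 ± 0.856 CPM, with a log2 fold change of −0.89 ± 0.21 (SE) and an adjusted p of 0.0460. Both calls sat at the threshold. Leaving out any of wild-type tumors 1, 2 and 4 or ΔAgo2 tumors 2, 3 and 4 ended that of Clock (adjusted p 0.0593 to 0.146), and leaving out any tumor but ΔAgo2 tumor 1 ended that of Cry1 (0.0576 to 0.169). They were 1.09 (0.0533) and −0.75 (0.0517) after the GC trend was removed. Arntl, the classical REV-ERB target, had a log2 fold change of 0.20 ± 0.26 (SE, adjusted p = 0.640).

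The output genes of the clock, and Arntl, Nfil3, Per2, Ciart, Cry2 and Bhlhe41, were named after their values were seen. Dbp and Tef, PAR-domain factors driven by CLOCK and BMAL1, had non-overlapping groups, with log2 fold changes of 0.92 ± 0.24 and 0.90 ± 0.22 (SE) and adjusted p-values of 0.0617 and 0.0506. In the whole list of 15 tested genes 3 were higher and 2 lower without overlap, and 16.4% of all genes had groups without overlap. Dbp and Tef did not pass in the main fit. They passed after the GC trend was removed, at 1.63 (adjusted p = 0.00258) and 1.18 (adjusted p = 0.0146). Nfil3, which opposes Dbp and is repressed by REV-ERBs in other tissues, had −0.85 ± 0.25 (SE) with 0.0845, also without overlap, and −0.50 with the GC trend removed. Per2 stood at 1.15 to 1.93 CPM in wild-type and 1.87 to 5.71 CPM in ΔAgo2 tumors (1.48 ± 0.39 SE, adjusted p = 0.0625). Per1 and Bhlhe40, the most abundant genes of the list, had −0.39 ± 0.35 and −0.38 ± 0.28 (SE), with adjusted p-values of 0.482 and 0.391, and Per1 was at 0.37 with the GC trend removed. Ciart lay at −0.67 ± 0.39 (SE, adjusted p = 0.293), and at −0.45 with the GC trend removed. Cry2 and Bhlhe41 had 0.12 ± 0.24 and 0.17 ± 0.27 (SE), with adjusted p-values of 0.770 and 0.714, and Hlf stayed under the filter. Of the 15 tested genes 8 lay above 0 and 7 below. The hour at which tumors were taken is not given in the sources used here, so a difference in time of day between the groups cannot be told apart from genotype.

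**Figure D5:**
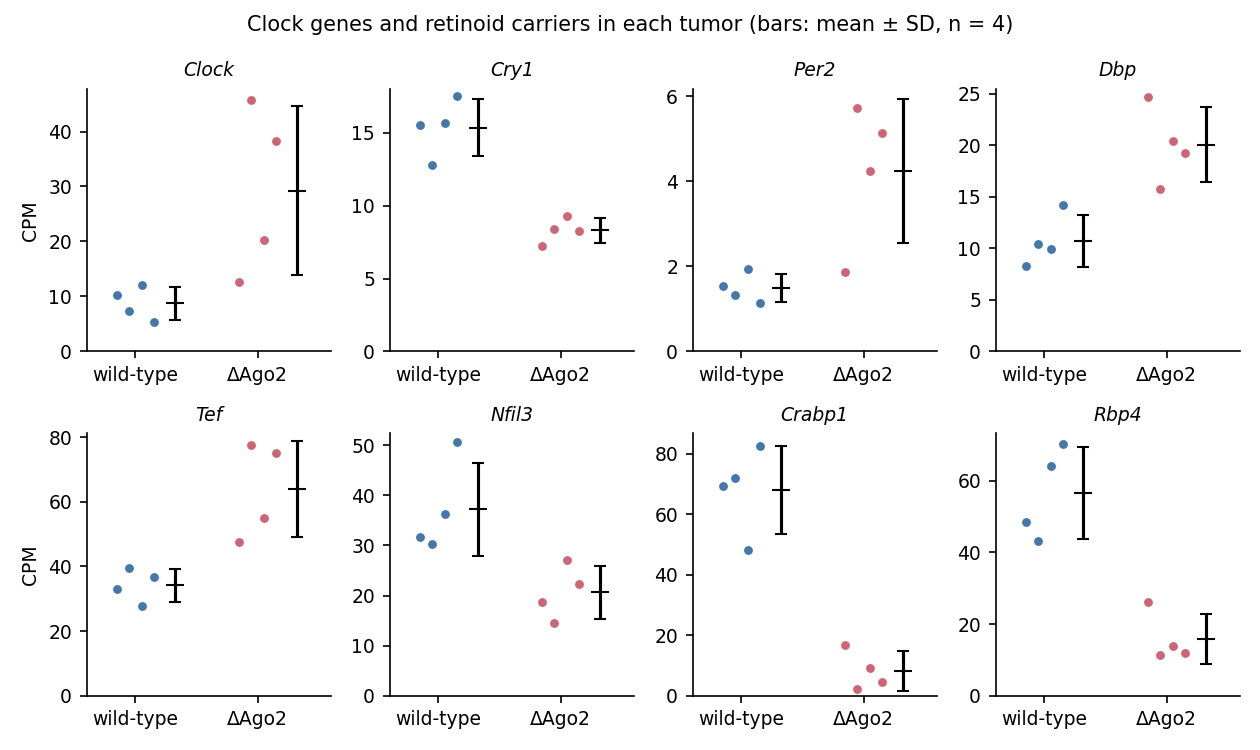
CPM of 6 clock genes and of the retinoid carriers Crabp1 and Rbp4 in each tumor, with mean ± SD of 4 tumors beside the points and a separate axis from 0 for each gene. ΔAgo2 tumors 2 and 4 are the highest for Clock, and the ΔAgo2 tumors lie under all wild-type tumors for Cry1, Crabp1 and Rbp4.

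None of the tested retinoic acid and retinoid X receptors passed with edgeR, and Rarg and Rxrb passed with DESeq2. Before adjustment Rarg and Rxrb had p of 0.00646 and 0.00781. Rarg, the RAR of skin and mesenchyme, had 195, 293, 175 and 302 CPM in wild-type and 174, 125, 131 and 130 CPM in ΔAgo2 tumors. The groups were just apart, at 175 against 174 CPM, and the log2 fold change was −0.79 ± 0.23 (SE) with an edgeR adjusted p of 0.0835. Rxrb, a common dimer partner, had 131, 256, 114 and 389 CPM in wild-type and 119, 82.8, 96.3 and 95.8 CPM in ΔAgo2 tumors. These overlapped, and the log2 fold change was −1.17 ± 0.36 (SE) with an adjusted p of 0.0898. Rarg was at −0.15 and Rxrb at −0.27 after the GC trend was removed. Without wild-type tumor 3 both passed, with adjusted p-values of 0.0492 and 0.0406 at log2 fold changes of −0.91 and −1.39, and without ΔAgo2 tumor 1 Rarg passed at −0.92 with 0.0418. Rara and Rxra, the widely expressed paralogs, had −0.32 ± 0.25 and −0.01 ± 0.18 (SE), with adjusted p-values of 0.412 and 0.967, and both changed sign with the GC trend removed, to 0.34 and 0.49. Rarb, itself a target of retinoic acid, and Rxrg stayed under the filter. Rarb overlaps Top2b, and had 2, 0, 11 and 0 counts in wild-type and 3, 15, 2 and 29 counts in ΔAgo2 tumors 1 to 4, against depths that differ as given above.

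All 17 genes of retinoid synthesis, binding and breakdown were tested, 0 rose and 2 fell, with a median log2 fold change of −0.11. Before adjustment 6 had p under 0.05, against 4279 of all 16061 genes tested, and DESeq2 called 3. After removal of the GC trend 4 passed, Crabp1, Rbp4 and Rdh10 lower and Cyp26a1 higher. Crabp1, a cytosolic carrier of retinoic acid, fell from 68.1 ± 14.5 to 8.16 ± 6.51 CPM (SD, n = 4 each). It stood at 16.8, 2.09, 9.28 and 4.44 CPM in ΔAgo2 tumors 1 to 4 and at 48.0 CPM or more in each wild-type tumor, with a log2 fold change of −3.07 ± 0.54 (SE) and an edgeR adjusted p of 0.0160. Rbp4, the retinol carrier, fell from 56.6 ± 12.8 to 15.8 ± 7.02 CPM, with −1.84 ± 0.31 (SE, adjusted p = 0.0124). Without ΔAgo2 tumor 3 or ΔAgo2 tumor 4 neither passed, with Crabp1 at 0.0515 and 0.0655 and Rbp4 at 0.0515 and 0.0616, and without wild-type tumor 2 Crabp1 was at 0.0554. The log2 fold changes in those fits ran from −3.13 to −2.84 for Crabp1 and from −1.78 to −1.70 for Rbp4. Both passed after the GC trend was removed, at −2.63 (adjusted p = 0.0139) and −1.50 (adjusted p = 0.0147). Cyp26a1, a retinoic acid hydroxylase named after its values were seen, had 0.0841 to 0.717 CPM in wild-type and 1.48 to 1.97 CPM in ΔAgo2 tumors, with a log2 fold change of 2.36 ± 0.58 (SE) and an adjusted p of 0.0521, and 2.71 (adjusted p = 0.0198) with the GC trend removed. The paralogs Crabp2 and Cyp26b1, also named after their values were seen, lay the other way from Crabp1 and Cyp26a1 and did not pass. They had 1.32 ± 0.49 and −0.51 ± 0.50 (SE), with adjusted p-values of 0.129 and 0.523, and 1.38 and −0.05 with the GC trend removed. Of the 17 genes 7 lay above 0 and 10 below. The most abundant genes of this list, Tgm2 and Rdh10, had 0.15 ± 0.19 and −0.46 ± 0.18 (SE), with adjusted p-values of 0.640 and 0.134. With the GC trend removed they were at 0.65 (adjusted p = 0.104) and −0.65 (adjusted p = 0.0373), so that Rdh10 passed.

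Neither LXR passed. Nr1h2 (LXRβ), the widely expressed oxysterol receptor, had 123, 286, 110 and 343 CPM in wild-type and 103, 86.6, 108 and 94.2 CPM in ΔAgo2 tumors. The groups were just apart, with wild-type tumors 1 and 3 close to the ΔAgo2 group. The log2 fold change was −1.14 ± 0.35 (SE) with an edgeR adjusted p of 0.0904. It was −0.27 after removal of the GC trend, and −1.35 (adjusted p = 0.0401) in the fit that left out wild-type tumor 3. Nr1h3 (LXRα), the form found in macrophages, liver and fat, ran from 9.94 to 27.0 CPM in wild-type tumors and had 21.7, 8.60, 8.21 and 7.08 CPM in ΔAgo2 tumors. Its log2 fold change was −0.76 ± 0.42 (SE, adjusted p = 0.259), −0.26 (adjusted p = 0.656) with the GC trend removed, and −1.28 (adjusted p = 0.0445) without ΔAgo2 tumor 1. Summed macrophage and monocyte markers, 12 of 12 detected, were at 3888 CPM in ΔAgo2 tumor 1 and at 1862 to 2646 CPM in the other 7 tumors. C1qa, C1qb and C1qc were highest in ΔAgo2 tumor 1, at 921, 706 and 605 CPM, as were Lyz2, Cd14 and Fcgr1. Adgre1, Csf1r, Cd68, Mrc1 and Msr1 there lay within the range of the other tumors, and Mertk, at 5.52 CPM, was the lowest of all. The part of macrophages in the level of Nr1h3 was not tested. Nr1h4 (FXR), the bile acid receptor, was at 0.246 CPM or less in the ΔAgo2 tumors and at 0 counts in wild-type tumor 4, which allows 0.43 CPM. Its log2 fold change was 0.56 ± 0.73 (SE, adjusted p = 0.641), and 0.45 with the GC trend removed.

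Of 16 LXR targets 12 were tested, 1 rose and 0 fell, with a median log2 fold change of 0.31, and 2 passed with DESeq2. Mylip, the ligase that removes the LDL receptor, rose from 11.7 ± 1.597 to 23.4 ± 3.76 CPM (SD, n = 4 each), with a log2 fold change of 0.99 ± 0.21 (SE) and an adjusted p of 0.0341, and 0.98 with the GC trend removed. Its call was lost without wild-type tumor 1, 2 or 4 or ΔAgo2 tumor 2, 3 or 4, with adjusted p-values from 0.0567 to 0.130 and log2 fold changes from 0.90 to 1.07. The cholesterol exporters Abca1 and Abcg1 and the lipogenic factor Srebf1, named after their values were seen, did not pass. They had 0.74 ± 0.49, 0.59 ± 0.22 and −1.02 ± 0.29 (SE), with adjusted p-values of 0.337, 0.131 and 0.0725. With the GC trend removed they were at 0.62, 0.78 and −0.33, with adjusted p-values of 0.442, 0.0563 and 0.256. Apoe and Scd2, the most abundant targets, had −0.24 ± 0.33 and 0.45 ± 0.20 (SE), with adjusted p-values of 0.661 and 0.176. Apoe was at 1281 CPM in ΔAgo2 tumor 1 and at 452 to 530 CPM in the other ΔAgo2 tumors, and passed without that tumor (−0.74, adjusted p = 0.0316). Its sign turned with the GC trend removed, to 0.27.

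Of the PPARs, Pparg and Ppard were tested and neither passed. Pparg, the master factor of fat cells and also a macrophage gene, had 3.41, 1.81, 3.09 and 0.430 CPM in wild-type and 6.11, 4.49, 5.10 and 4.68 CPM in ΔAgo2 tumors. The groups did not overlap, and the lowest value, in wild-type tumor 4, rests on 3 counts. The log2 fold change was 1.15 ± 0.45 (SE) with an edgeR adjusted p of 0.143, and 1.16 with the GC trend removed. Its highest value was in ΔAgo2 tumor 1, in which the summed adipocyte markers were also highest (394 CPM). The adipocyte sums of the other 3 ΔAgo2 tumors were 18.8 to 46.2 CPM and those of the wild-type tumors 37.0 to 218 CPM. The part of fat cells in the level of Pparg was not tested. Ppard, the widely expressed form, ran from 119 to 215 CPM in wild-type and 131 to 156.8 CPM in ΔAgo2 tumors (−0.18 ± 0.21 SE, adjusted p = 0.595; 0.02 with the GC trend removed). Ppara, the form of liver and oxidative muscle, had 10 counts over all libraries. Of 20 PPAR targets 15 were tested and 0 passed with edgeR or with DESeq2. Before adjustment 0 had p under 0.05, and the median log2 fold change was −0.04. The most abundant were Plin2, which coats lipid droplets, and Acadl, of fatty acid oxidation, at 0.03 ± 0.23 and −0.07 ± 0.20 (SE), with adjusted p-values of 0.942 and 0.837.

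The receptors for thyroid hormone and vitamin D did not pass. Thra, the dominant thyroid hormone receptor of most non-hepatic tissues, had 91.7, 150, 99.6 and 170 CPM in wild-type and 90.9, 78.5, 71.7 and 81.9 CPM in ΔAgo2 tumors. Wild-type tumors 2 and 4 were high and the groups were just apart. The log2 fold change was −0.66 ± 0.23 (SE) with an edgeR adjusted p of 0.113, and 0.05 with the GC trend removed. Thrb ran from 0.334 to 1.56 CPM in wild-type and 0.149 to 0.529 CPM in ΔAgo2 tumors, with −1.42 ± 0.55 (SE) and an adjusted p of 0.135, and −1.73 with the GC trend removed. It was highest in wild-type tumor 3, the tumor with the highest muscle marker sum, and had a log2 fold change of −0.91 (adjusted p = 0.297) when that tumor was left out. Vdr, the vitamin D receptor, was at 2.29 to 4.40 and 2.52 to 5.85 CPM (0.13 ± 0.36 SE, adjusted p = 0.836), and its log2 fold change was 0.31 with the GC trend removed. The xenobiotic receptors Nr1i3 (CAR) and Nr1i2 (PXR), which belong to liver and gut, had 8 and 0 counts in all. Of 13 genes of vitamin D and thyroid hormone handling 7 were tested and 0 passed with edgeR or DESeq2, with 1 at an unadjusted p under 0.05. The most abundant, the transporter Slc16a10 and the corepressor Hr, had −0.05 ± 0.23 and 0.44 ± 0.35 (SE), with adjusted p-values of 0.908 and 0.428, and −0.20 and 1.24 with the GC trend removed.

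The steroid and estrogen-related receptors did not pass. Nr3c1, the glucocorticoid receptor, was the most abundant steroid receptor, at 25.3 TPM on average. It ran from 22.8 to 66.1 CPM in wild-type and from 47.7 to 113 CPM in ΔAgo2 tumors. The groups overlapped, wild-type tumors 2 and 4 were the lowest, and the log2 fold change was 0.94 ± 0.38 (SE) with an edgeR adjusted p of 0.151, and 0.47 with the GC trend removed. Esr1, the estrogen receptor, had 4.85, 3.96, 9.71 and 3.44 CPM in wild-type and 2.54 to 3.60 CPM in ΔAgo2 tumors, with −0.90 ± 0.36 (SE) and an adjusted p of 0.148. Its highest value was in wild-type tumor 3, and leaving that tumor out gave −0.46 (adjusted p = 0.318), whereas removal of the GC trend gave −1.12 (adjusted p = 0.0582). Esrra, an orphan regulator of mitochondrial genes, was at 37.8 TPM on average and had −0.19 ± 0.29 (SE, adjusted p = 0.7001), and −0.15 with the GC trend removed. Nr3c2, the mineralocorticoid receptor and the gene with most counts under the filter, had 9, 6, 12 and 0 counts in wild-type and 5, 11, 5 and 41 counts in ΔAgo2 tumors 1 to 4. Pgr, the progesterone receptor, had 1, 0, 19 and 0 counts in wild-type tumors and 9 in the ΔAgo2 tumors together. Esrrb, Esrrg and Esr2 had 39, 15 and 3 counts in all.

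All 15 glucocorticoid receptor targets were tested, 1 rose and 0 fell, with a median log2 fold change of −0.06. DESeq2 called 4, and the fit with the GC trend removed called 2, Anxa1 higher and Sgk1 lower. Anxa1 (annexin A1), an anti-inflammatory phospholipid-binding protein, rose from 332 ± 112 to 846 ± 87.1 CPM (SD, n = 4 each), with a log2 fold change of 1.35 ± 0.26 (SE) and an adjusted p of 0.0243. It passed after the GC trend was removed, at 1.00 (adjusted p = 0.00971). It was lost without wild-type tumor 2 or 4 or ΔAgo2 tumor 2, 3 or 4, with adjusted p-values from 0.0585 to 0.0878 and log2 fold changes from 1.20 to 1.40. The targets most used as readouts, Fkbp5 and Tsc22d3 (GILZ), named after their values were seen, did not overlap between groups but did not pass, at 0.34 ± 0.17 and 0.71 ± 0.20 (SE), with adjusted p-values of 0.210 and 0.0726. Sgk1 and Cebpd, named in the same way, lay the other way, also without overlap. They had −0.67 and −1.50, with adjusted p-values of 0.0798 and 0.0665. Of the 15 targets 3 were higher and 3 lower without overlap, and 16.4% of all genes had groups without overlap. With the GC trend removed Sgk1 passed, at −0.75 (adjusted p = 0.0387), and Cebpd was at −1.34 (adjusted p = 0.0716). Mt1, a metallothionein, had −0.80 ± 0.59 (SE, adjusted p = 0.387).

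Nr4a1, Nr4a2 and Nr4a3 are immediate-early orphan receptors whose activity is set by their level rather than by a ligand. None passed with edgeR or DESeq2. Nr4a1 had 12.1 to 27.7 CPM in wild-type and 17.4 to 18.9 CPM in ΔAgo2 tumors, with a log2 fold change of −0.11 ± 0.25 (SE) and an edgeR adjusted p of 0.800. Nr4a2 and Nr4a3 had −0.05 ± 0.29 and −0.08 ± 0.36 (SE), with adjusted p-values of 0.931 and 0.898, and all 3 had unadjusted p-values over 0.05. The 3 genes were at 0.41, −0.17 and −0.16 with the GC trend removed. Their ΔAgo2 means were 18.1, 7.80 and 1.61 CPM. Of 18 immediate-early genes that are induced with them all were tested, 1 rose and 0 fell, with a median log2 fold change of −0.52. In 15 the log2 fold change was below 0, as in 7634 of all 16061 genes tested. Several of the 15 moved above 0 with the GC trend removed. Klf2, Ier2, Atf3 and Egr2, named after their values were seen, were then at 0.69, 0.18, 0.14 and 0.03. Jund and Junb also turned, as given below. Egr1, Fos and Jun, named after their values were seen, were among those that remained below 0, at −0.75, −0.91 and −0.52. DESeq2 called 3, and the fit with the GC trend removed called 1, Jund. The gene that rose was Klf6, a zinc finger factor also expressed without stimulation, from 98.1 ± 24.1 to 217 ± 64.1 CPM (SD, n = 4 each), with 1.15 ± 0.27 (SE) and an adjusted p of 0.0448. With the GC trend removed it was 0.64 with 0.0764, and without wild-type tumor 1, 2 or 4 or ΔAgo2 tumor 2, 3 or 4 it was lost, with adjusted p-values from 0.0593 to 0.146 and log2 fold changes from 0.98 to 1.27. Jund and Junb, the most abundant, had −0.33 ± 0.41 and −0.83 ± 0.40 (SE), with adjusted p-values of 0.622 and 0.209, and both changed sign with the GC trend removed, to 0.73 (adjusted p = 0.0396) and 0.09.

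The remaining orphan receptors did not pass. Nr2c2 (TR4), a relative of the COUP-TFs, had 40.2, 28.4, 42.8 and 15.3 CPM in wild-type and 38.0, 94.8, 52.0 and 81.4 CPM in ΔAgo2 tumors. The groups overlapped through ΔAgo2 tumor 1, and the log2 fold change was 1.06 ± 0.36 (SE) with an edgeR adjusted p of 0.108. The fit that left out that tumor gave 1.24 (adjusted p = 0.0470), and removal of the GC trend gave 0.85. Nr2c1 (TR2) and Nr6a1 (germ cell nuclear factor) had 0.14 ± 0.24 and 0.21 ± 0.34 (SE), with adjusted p-values of 0.730 and 0.713, and −0.25 and 0.10 with the GC trend removed. Nr5a2 (LRH-1), a liver and gut receptor, was at 0.631 CPM or less in every tumor, with a log2 fold change of −0.07 ± 0.59 (SE, adjusted p = 0.953), and −0.41 with the GC trend removed.

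Among 16 coactivators 15 were tested, 1 rose and 0 fell, with a median log2 fold change of 0.34, and 4 passed with DESeq2. Kat2b (PCAF), a histone acetyltransferase, rose from 16.01 ± 3.56 to 39.9 ± 12.9 CPM (SD, n = 4 each), with a log2 fold change of 1.31 ± 0.28 (SE) and an edgeR adjusted p of 0.0333. After removal of the GC trend it was 1.11 (adjusted p = 0.0206). Without wild-type tumor 2 or 4 or ΔAgo2 tumor 2, 3 or 4 its adjusted p ran from 0.0572 to 0.120, at log2 fold changes from 1.13 to 1.43. The methyltransferases Prmt1 and Carm1, the most abundant coactivators, had −0.04 ± 0.20 and −0.41 ± 0.21 (SE), with adjusted p-values of 0.918 and 0.239, and both turned sign with the GC trend removed, to 0.30 and 0.15. Of 12 corepressors all were tested and 0 passed with edgeR, with 3 at an unadjusted p under 0.05 and 3 called by DESeq2. Ncor1, a scaffold for histone deacetylase complexes, had a log2 fold change of 0.22 ± 0.34 (SE, adjusted p = 0.705). Over all 9 lists of partners and targets, 8 of 124 tested genes passed (6.45%, against 3.49% of all genes), 5 higher and 3 lower.

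The 13 genes under the filter with counts reached at most 0.484 CPM and 0.61 TPM in any tumor. In 5 of them, Pgr, Rxrg, Esrrg, Rarb and Rorb, wild-type tumor 3 was the highest of the 8 tumors, the tumor with 4284 CPM of muscle markers, and Esrrg and Rxrg are known from muscle; their part was not tested. Nr0b2 (SHP) and Nr5a1 (SF-1) had 19 and 11 counts in all, and Nr2e1 (TLX) had 1 count, in the deepest library. The liver receptors Hnf4a and Hnf4g, the photoreceptor factor Nr2e3, the adrenal factor Nr0b1 (DAX1) and Nr1i2 had 0 counts in every library, which allows up to 0.43 CPM in the shallowest and 0.0105 CPM in the deepest.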

How the data were processed

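Poly(A) RNA of 8 whole tumors was sequenced as stranded, paired-end 100 bp libraries. The authors deposited raw gene counts, and TPM values, which they made from the counts by division by gene length and scaling to 1e+06 in each library. The authors' processing notes name STAR and mm10; the study's methods describe counting with featureCounts for cultured cells only. For the tumors the annotation release and the settings for strand and for multi-mapping reads are not given in the sources used here. Each tumor took its group from its title and genotype label, and nothing was left out.

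Identifiers were matched to GENCODE M21 (GRCm38), 99.29% with their version. In R 4.3.3 with edgeR 4.0.16, counts were filtered with filterByExpr, scaled by TMM and compared by the quasi-likelihood test over all 8 tumors with no covariate. TPM served only to compare levels between genes. DESeq2 1.42.0, other scalings, no count filter, thinning, GC offsets (fitted on genes averaging 50 counts or more), a replicate block and leaving out each tumor were alternatives. The procedure was run on simulated counts that held no GC trend and no differences in tissue content, so it was not tested for these. The receptor genes, the partner and marker lists and the rules for naming genes were chosen with earlier results of these data known. Genes named were those past the threshold, receptors whose groups did not overlap, the 5 highest by TPM, the 2 with most counts under the filter, and, per list, the genes past the threshold and the 2 highest by CPM; exceptions are marked, and 1 gene that this rule selects is not reported here. Replicates are separate tumors per the labels.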

Additional observations from a re-analysis of the deposited data

Results flagged for a closer look

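Each group of 4 tumors was examined for a highest or lowest value that stands apart (gap to the nearest value, over the whole range, above Dixon's critical value for 4 values at 1 in 20), for the tested receptors, the named partner genes and the summed marker lists. Of 128 groups, 15 values stood apart, where chance gives about 6.4. No explanation was tested.

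ΔAgo2 tumor 1 holds 10 of the 15, of which 3 are marker sums. Among receptors Rarg was at 173.7 CPM there (125.3 to 131 CPM in the other ΔAgo2 tumors), Rara at 80.24 CPM (53.73 to 55.85), Esrra at 84.47 CPM (44.03 to 50.75) and Nr1h3 at 21.71 CPM (7.075 to 8.597). Among partner genes Apoe was at 1281 CPM (452.3 to 530.4), Rbp4 at 26.24 CPM (11.33 to 13.82) and Per1, lower than the rest, at 26.94 CPM (60.23 to 66.59). The summed adipocyte markers were at 394.3 CPM (18.84 to 46.22), the summed B cell markers at 4.308 CPM (2.874 to 3.075) and the summed Schwann and peripheral nerve markers, lower than the rest, at 131.8 CPM (149.5 to 153.1). Nr1h4 was low in ΔAgo2 tumor 3, at 0.02985 CPM (0.2193 to 0.2462), which is 1 count. Among wild-type tumors Mt1 was at 796.5 CPM in tumor 4 (149.8 to 230.1) and Tgm2 at 200.3 CPM in tumor 2 (133.8 to 142.8). In wild-type tumor 3 the summed skeletal muscle markers were at 4284 CPM (304.7 to 581.9) and the summed adipocyte markers at 217.8 CPM (37 to 55.18).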

How the results depend on the processing

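Nr2f1 kept its direction and its call in all 16 alternatives run. Of the 28 receptors, 2 passed (1 higher, 1 lower). DESeq2's Wald test called 9 (4 higher, 5 lower), the replicate block 1 (0 higher, 1 lower), and removal of the GC trend, with or without the block, 3 (2 higher, 1 lower). Leaving out a tumor gave 1 to 6 receptors, 0 to 3 higher and 1 to 5 lower; both ends of the total came from single tumors, 6 without wild-type tumor 3 or ΔAgo2 tumor 1 and 1 without wild-type tumor 2, ΔAgo2 tumor 2 or ΔAgo2 tumor 4. Of the partner genes 8 passed, 25 with DESeq2, 13 with no count filter, 0 with the replicate block and 0 to 21 when a tumor was left out. Other scalings and thinning left 2 receptors past the threshold. Over all genes 560 passed, against 70 with the block, 2274 with DESeq2, 983 with no count filter and 88 to 1793 without a tumor. The causes of these differences were not tested.

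The replicate numbers are shared by the groups but do not pair the tumors: deviations from the group means of same-numbered tumors correlated at −0.271, 0.117, −0.077 and −0.383, and no tumor correlated best with its own number. In the fit with the replicate block Nr1d2 was at 2.12 on the log2 scale (adjusted p, 0.116), and the 8 partner calls were lost.

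Signs of the tested receptors and of the partner genes selected by the naming rule turned as follows. With the GC trend removed, and with the block added, they were Thra 0.05 and 0.05, Ppard 0.02 and 0.03, Rara 0.34 and 0.34, Rxra 0.49 and 0.50, Nr4a1 0.41 and 0.44, Nr2c1 −0.25 and −0.27, Per1 0.37 and 0.29, Apoe 0.27 and 0.27, Prmt1 0.30 and 0.29, Carm1 0.15 and 0.14, Jund 0.73 and 0.72 and Junb 0.09 and 0.11. With total counts and with no count filter they were Rxra 0.06 and 0.05, Nr4a2 0.03 and 0.01, Slc16a10 0.01 and 0.01 and Prmt1 0.02 and 0.02. Thinning gave Nr6a1 −0.02 and Slc16a10 0.05, and the block Nr5a2 0.20 and Plin2 −0.02. Leaving out a tumor turned the sign in some fits of Esrra (−0.46 to 0.05), Nr4a1 (−0.28 to 0.10), Nr4a2 (−0.27 to 0.13), Nr4a3 (−0.27 to 0.06), Nr5a2 (−0.35 to 0.64), Rxra (−0.10 to 0.08), Vdr (−0.15 to 0.29), Jund (−0.69 to 0.13), Mt1 (−1.42 to 0.04), Ncor1 (−0.04 to 0.47), Plin2 (−0.19 to 0.17), Prmt1 (−0.19 to 0.06) and Slc16a10 (−0.14 to 0.05).

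Depth limits the low receptors: in wild-type tumor 4 a count of 0 allows 0.43 CPM, above the level of most genes under the filter. Wild-type tumors 2 and 4 carry the GC-rich coverage and are also the 2 shallowest libraries, so GC coverage, depth and genotype are only partly separate.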

Other observations

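Of the muscle markers Myh2 passed (log2 fold change −2.84, adjusted p = 0.0305), of the keratinocyte markers Krt10 (2.06, 0.0460), of the endothelial markers Vwf (−1.09, 0.0466) and of the fibroblast markers Fap (−1.52, 0.0329). Summed T cell markers reached 118 CPM in the first ΔAgo2 tumor, with the remaining ΔAgo2 tumors at 33.4 to 49.6 CPM, against 71.9 to 80.7 CPM in wild-type tumors. Most of that sum was Thy1, which is also in the fibroblast list, at 46.6 to 71.0 CPM in wild-type and 23.0 to 70.7 CPM in ΔAgo2 tumors. The 11 T cell markers had a median log2 fold change of 0.04, with 7 above 0 and 4 below, and 0 were called. The summed proliferation markers, 10 of 10 detected, ran from 1156 to 1343 CPM in wild-type and from 1619 to 1722 CPM in ΔAgo2 tumors without overlap. Their median log2 fold change was 0.56, Plk1, Mcm2 and Mcm5 lay below 0 (−0.23, −0.20 and −0.30), and the edgeR adjusted p-values of the single markers ran from 0.0972 to 0.524. Summed neutrophil markers overlapped, at 25.3 to 64.5 and 42.3 to 70.3 CPM.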
